A study of Mus musculus with 7 samples.

Results

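Lymphocytes are a minor cell population of the pancreatic islet, and their genes were followed here in islets of pregnant mice that carry 1 or 2 intact copies of the prolactin receptor gene. The genes were 51 named markers of T, natural killer (NK), B and plasma cells. A member was measured where the platform annotation gave its symbol alone to a probe set of the array, and the probe set with the highest mean stood for it. This held for 49 of the 51 members, out of 19938 genes measured in all; Lck and Tcf7 were not analysed here. The islets came from 4 females heterozygous for a prolactin receptor null allele (PrlR+/-) and 3 wild-type females (PrlR+/+), all on the C57BL/6 background. All were mated at 12 to 16 weeks of age and taken on day 15 of pregnancy. The labels name no promoter or cell type that restricts the null allele. Each array is called a mouse here; the labels do not say whether islets of several animals were pooled, so p-values measure the spread between these samples only. An array was hybridised with the labelled product of 250 ng RNA, of integrity number above 8.5.

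T cells recognise peptides through the T cell receptor, whose CD3 chains pass the signal to the kinases Lck and Zap70 and to the adaptor Lat. Cytotoxic T cells and NK cells kill with perforin and granzymes, while B cells bind antigen through surface immunoglobulin held by Cd79a and Cd79b and mature into plasma cells that secrete antibody. Islets hold few lymphocytes in healthy mice, and T and B cells are best known there from autoimmune diabetes. The prolactin receptor belongs to the cytokine receptor superfamily and signals through Jak2 and STAT5, and it has been described on lymphocytes as well as on beta cells.

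Endocrine and acinar content was looked at by marker genes. All 9 measured endocrine markers, among them Ins2, Gcg and Slc2a2, lay above the range of unexpressed genes, and so did all 6 measured acinar markers. The acinar genes Cpa1 and Ctrb1 averaged 13.68 and 13.72, beside 13.30 for Ins2, so exocrine RNA was present too. These values come from different probe sets and lie near the highest value on the arrays, 13.97. They therefore do not rank acinar against endocrine RNA. The acinar list mean ran from 11.10 in PrlR+/+ 3 to 11.86 in PrlR+/- 2. Whether the lymphocyte values come from islet or exocrine tissue was not tested. The prolactin receptor gene itself was not analysed here, which leaves the genotype labels without that check. The precision is limited by the number of arrays, 4 against 3, and the median standard error (SE) of a log2 difference was 0.0977 over all genes. One array stood apart. On that of PrlR+/- 4 the median of 1027 olfactory receptor genes, a family hardly transcribed in islets, was 4.30 on the log2 scale, against 4.22 or 4.23 on the other 6 arrays. The endocrine list mean was lowest there, at 12.30 against 12.37 to 12.53 on the others. Slc2a2 and Mafa were lowest on that array, while Iapp and Nkx6-1 shared their highest value there. Whether this bears on the lymphocyte values of PrlR+/- 4 was not tested. Results that rest on this mouse are given with and without it. Arrays are bulk measurements, in which fewer cells of a type and less RNA per cell cannot be told apart.

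The first question was which lymphocyte genes could be told from the dim range, and most could not. The dim range was set by the olfactory receptor genes, whose means over the 7 arrays had a median of 4.24, a 95th percentile of 5.98 and a 99th percentile of 6.86. Of the 49 lymphocyte genes, 17 had a mean above the 95th percentile, or 34.7%, against 70.7% of all genes tested. Only Thy1, Ccl5, Ccr7 and Il2ra were above the 99th percentile, and only Thy1 was above the median of all gene means, 7.36. The nearest members on either side of the limit were Fcmr, a receptor for IgM, with a mean of 6.00, and Ifng, the cytokine interferon gamma, with a mean of 5.96. Probe sets differ in how strongly they bind, so a gene below the limit may still be transcribed, and a value just above it does not show that it is.

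**Figure D1:**
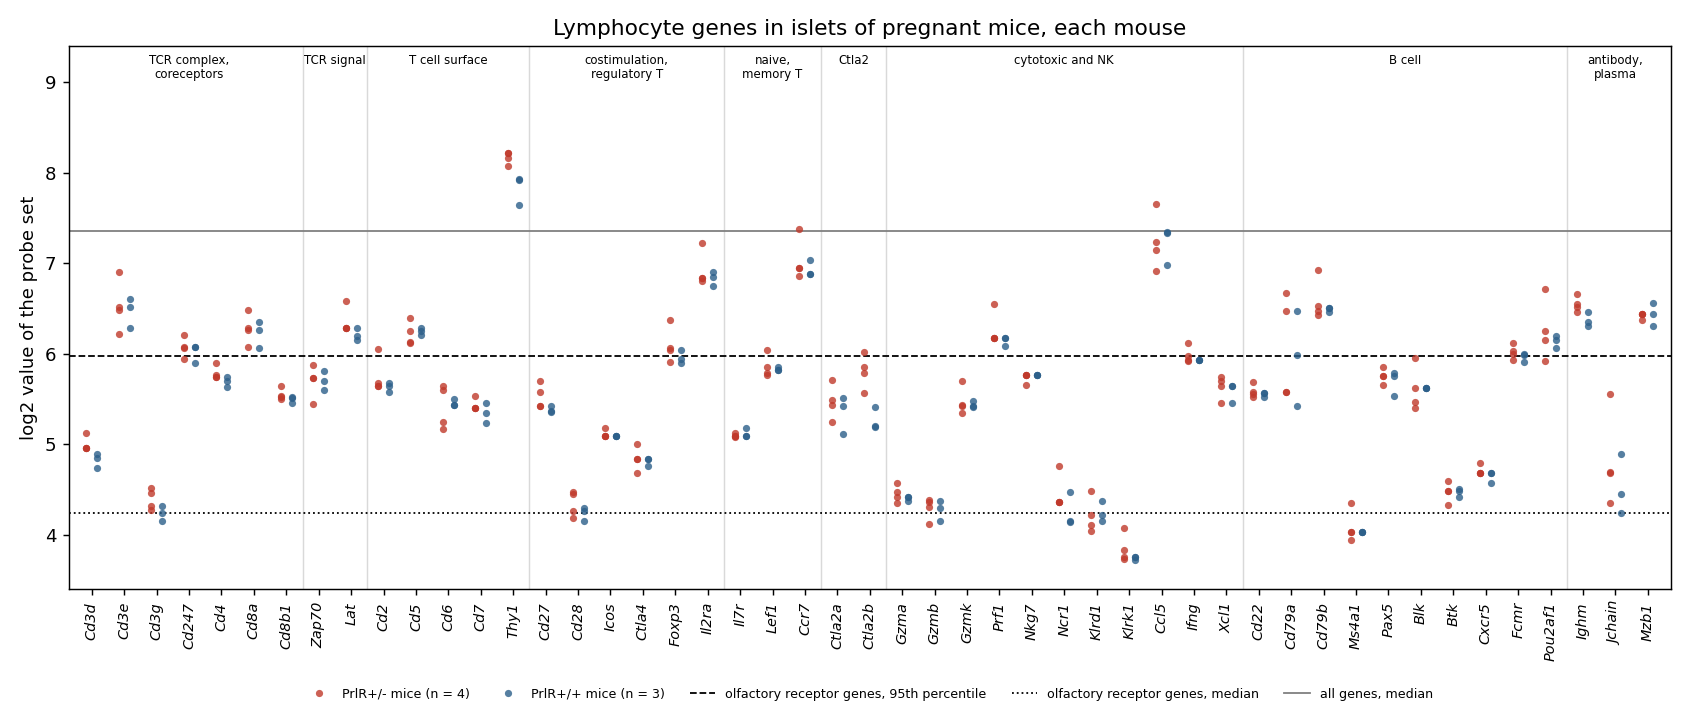
Log2 values of the 49 lymphocyte genes in each mouse, grouped by role, with PrlR+/- mice as red points left of PrlR+/+ mice as blue points. The dashed line is the 95th percentile of olfactory receptor genes at 5.98, the dotted line their median at 4.24 and the grey line the median of all genes at 7.36; only 17 members have means above the dashed line.

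Setting PrlR+/- against PrlR+/+ mice asked whether loss of 1 receptor allele changes the lymphocyte transcripts of the islet in pregnancy, and no member passed the test. By limma with Benjamini-Hochberg adjustment over all 19938 genes, 0 members and 0 genes (0% of those tested) had an adjusted p under 0.05, and every member had an adjusted p of 0.99 or more. An unadjusted p under 0.05 was found for 4 members, Ctla2b, Thy1, Cd3d and Ighm, all higher in PrlR+/- islets; over all genes the share was 2.2%. The groups did not overlap for 3 of them, Ctla2b, Thy1 and Cd3d, where 2.24% of all genes did not overlap. In all 3 the PrlR+/- values were the higher, as in 1.03% of all genes; no member had PrlR+/- values that were all lower, as in 1.21% of all genes. For 46 of the 49 members the 95% interval of the difference lay inside 1.5-fold in both directions, the exceptions being Ctla2b, Cd79a and Jchain. Dim probe sets understate differences in transcript, so this bound holds for the array values and not for the transcripts.

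Direction was uneven. Of the 49 members, 41 had a higher and 8 a lower mean in PrlR+/- islets (83.7% higher), against 55.7% higher over all genes and 60.8% higher over the olfactory receptor genes. The differences were small, with a median of 0.059 over the members and 0.014 over all genes. Without PrlR+/- 4, 27 of the 49 members (55.1%) had a higher mean, 20 a lower and 2 an equal one, beside 49.5% of all genes higher, and the median difference was 0.013. With every array centred on its olfactory receptor median, 38 members were higher, beside 47.8% of all genes, and the median difference of the members was 0.04. Leaving that mouse out moved the difference downwards for 42 of the 49 members, and made it smaller in size for 34 and larger for 15.

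**Figure D2:**
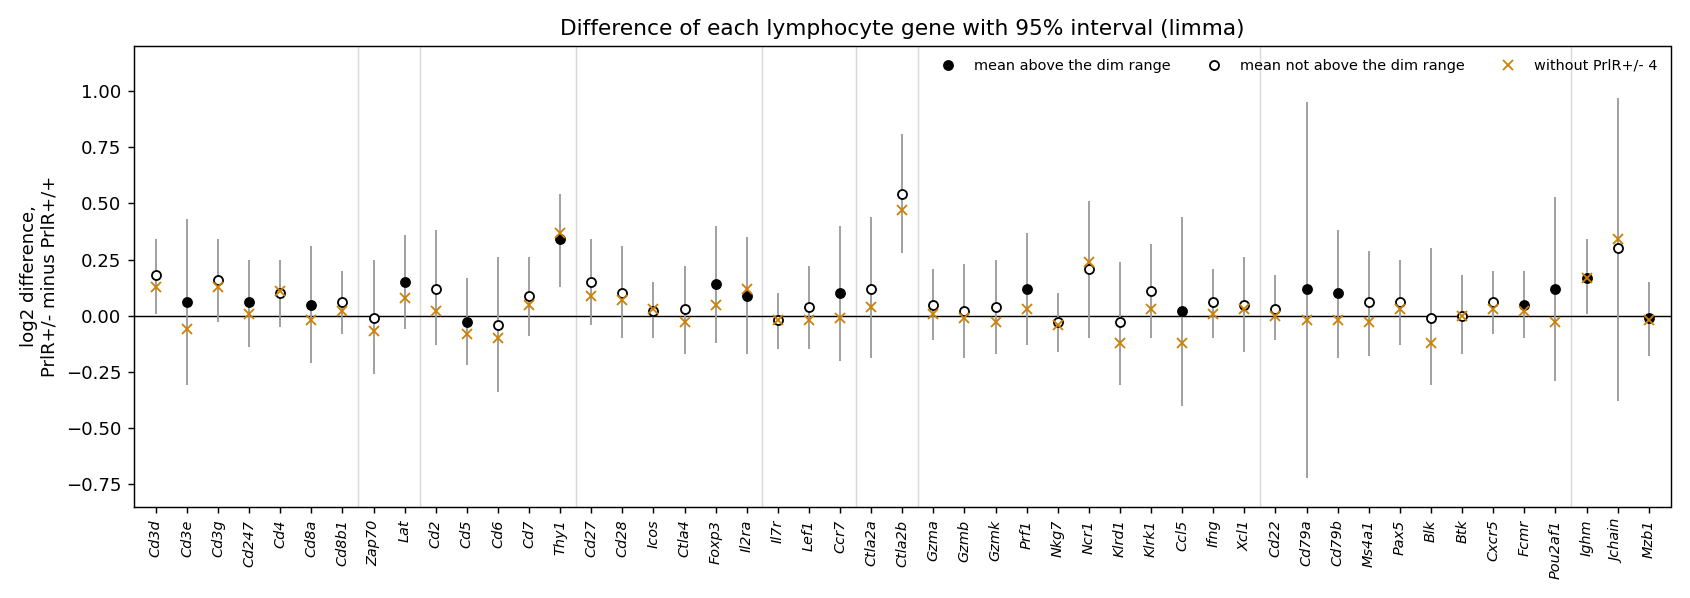
Log2 difference of each of the 49 lymphocyte genes, PrlR+/- minus PrlR+/+, with its 95% interval from limma; filled points are members with means above the dim range, and crosses are the differences without PrlR+/- 4. Ctla2b at 0.54 and Thy1 at 0.34 lie highest and move little without that mouse, while the crosses lie lower than the points for 42 of the 49 members.

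Ctla2b showed the largest difference of any member. It encodes a small protein like the propeptide of cathepsin-type cysteine proteases, found in activated mouse T cells and transcribed in other tissues too. Its log2 values were 5.79, 5.86, 5.57 and 6.02 in PrlR+/- 1 to 4, against 5.19, 5.41 and 5.20 in PrlR+/+ 1 to 3. Every PrlR+/- mouse lay above every PrlR+/+ mouse. It averaged 5.81 ± 0.19 (SD, n = 4) for PrlR+/-, against 5.27 ± 0.12 (SD, n = 3) for PrlR+/+, a difference of 0.54 ± 0.11 (SE; limma, unadjusted p = 0.00183, adjusted p = 0.99). Without PrlR+/- 4 the difference was 0.47. Its mean of 5.58 over the 7 arrays lay below the dim range limit.

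Its close relative Ctla2a, on the same chromosome and of the same protein family, did not show this separation. Ctla2a had log2 values of 5.25, 5.44, 5.49 and 5.71 in PrlR+/- 1 to 4, against 5.43, 5.51 and 5.11 in PrlR+/+ 1 to 3. The groups overlapped, and the difference was 0.12 ± 0.13 (SE; limma, unadjusted p = 0.39), or 0.04 without PrlR+/- 4. The difference between the responses of the relatives was not tested. Transcripts of either gene may bind the probes of the other, so the values of both are uncertain as to the gene.

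DNA before an annotated start of each gene is shown because the pair is alike there too, with that of Cd3d, another member whose groups did not overlap. The sequences are the 250 bases before an annotated start in RefSeq (build GRCm38.p6), at chr13:60897448-60897697 and chr13:60936626-60936875 on the minus strand and chr9:44981536-44981785 on the plus strand. Capitals mark the letters TTCNNNGAA, the core to which STAT factors are known to bind, which reads the same on both strands.
Ctla2b: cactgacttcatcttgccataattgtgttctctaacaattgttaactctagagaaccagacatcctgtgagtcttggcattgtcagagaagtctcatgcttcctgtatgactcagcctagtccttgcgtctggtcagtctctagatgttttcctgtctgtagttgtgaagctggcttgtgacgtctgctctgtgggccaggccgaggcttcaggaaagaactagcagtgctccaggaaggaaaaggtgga
Ctla2a: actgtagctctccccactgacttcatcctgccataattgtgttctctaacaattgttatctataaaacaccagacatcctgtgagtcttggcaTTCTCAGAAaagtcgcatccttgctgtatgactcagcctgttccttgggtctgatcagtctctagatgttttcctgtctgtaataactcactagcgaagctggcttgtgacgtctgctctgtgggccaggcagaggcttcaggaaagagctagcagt
Cd3d: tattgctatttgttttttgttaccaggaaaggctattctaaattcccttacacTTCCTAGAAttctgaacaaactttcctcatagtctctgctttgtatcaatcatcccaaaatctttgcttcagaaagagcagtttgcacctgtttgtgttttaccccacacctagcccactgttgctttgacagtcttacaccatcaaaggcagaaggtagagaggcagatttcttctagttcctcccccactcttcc
The start used for Ctla2b lies 487 bases inside the outermost start of the gene in RefSeq, so its window lies wholly within the annotated gene. That of Ctla2a is the outermost start, and that of Cd3d lies 17 bases inside. Over 228 aligned bases, Ctla2b and Ctla2a were 91.2% identical. The marked letters begin 157 bases before the start of Ctla2a and 197 bases before that of Cd3d, and the motif is not in the Ctla2b window. The starts of Ctla2b and Ctla2a are annotated differently, but their windows align over most of their length. In the Ctla2b window, the stretch that aligns with the marked letters of Ctla2a reads ttgtcagag. Whether this bears on either gene was not tested. A promoter window of 300 bases was found for 32 measured members, of which 7 (21.9%) held the motif: Cd3d, Ctla2a, Foxp3, Gzmb, Ifng, Il7r and Nkg7. Of 27025 genes with such a window, 9.55% held it. Neither Ctla2b nor Thy1, the other members whose groups did not overlap, is among the 7 with the motif. The sequence of Thy1 is not shown. A match of letters is a description and does not show that a factor binds.

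Thy1, the only member above the median of all gene means, was another gene whose groups did not overlap. It encodes a surface glycoprotein of T cells that neurons and fibroblasts also carry. The log2 values were 8.16, 8.22, 8.22 and 8.07 in PrlR+/- 1 to 4, against 7.93, 7.92 and 7.64 in PrlR+/+ 1 to 3. Every PrlR+/- value lay above every PrlR+/+ value, and the lowest value overall was that of PrlR+/+ 3. The mean of the PrlR+/- mice was 8.17 ± 0.07 (SD, n = 4), against 7.83 ± 0.16 (SD, n = 3) for PrlR+/+, a difference of 0.34 ± 0.09 (SE; limma, unadjusted p = 0.00602, adjusted p = 0.99). It was 0.37 without PrlR+/- 4. Neural and fibroblast marker lists were also looked at, beside 55.7% of all genes with a higher mean, or 49.5% without PrlR+/- 4. All 8 measured Schwann cell and neuron markers had a higher mean, none with an unadjusted p under 0.05 by limma. Without PrlR+/- 4 all 8 were still higher. Their list means were 7.06 to 7.20 in PrlR+/- and 6.83 to 7.06 in PrlR+/+ mice. Of 10 fibroblast and stellate cell markers, 9 had a higher mean, or 8 without PrlR+/- 4. Their list means overlapped, at 7.42 to 7.84 in PrlR+/- and 7.43 to 7.62 in PrlR+/+ mice. The lowest, 7.42, was that of PrlR+/- 3. The part of these cells in the Thy1 difference was not tested.

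**Figure D3:**
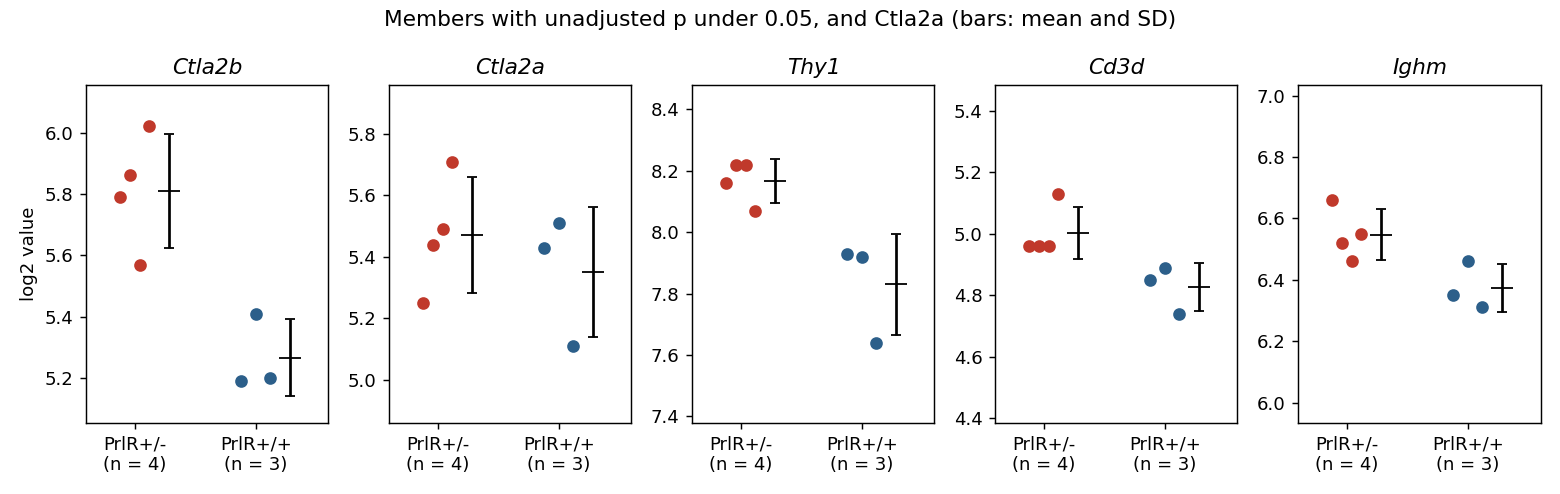
Log2 values of Ctla2b, Ctla2a, Thy1, Cd3d and Ighm in each mouse, with PrlR+/- (n = 4) left of PrlR+/+ (n = 3) and bars for mean and SD; every panel spans 1.1 log2 units at its own height. The groups do not overlap for Ctla2b, Thy1 and Cd3d, whereas they overlap for Ctla2a and touch at 6.46 for Ighm.

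The genes of the T cell receptor complex and the coreceptors all had slightly higher means in PrlR+/- islets, 7 of 7, or 5 of 7 without PrlR+/- 4, with differences between 0.05 and 0.18. Cd3d, a CD3 chain, was the 1 whose groups did not overlap: its log2 values were 4.96, 4.96, 4.96 and 5.13 in PrlR+/- 1 to 4, against 4.85, 4.89 and 4.74 in PrlR+/+ 1 to 3. The difference was 0.18 ± 0.07 (SE; limma, unadjusted p = 0.0402, adjusted p = 0.99), and it was 0.13 without PrlR+/- 4. Its mean of 4.93 lay well inside the dim range, and its range over the 7 mice was 0.39.

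Cd3e, another CD3 chain, lay above the dim range at 6.49, 6.52, 6.22 and 6.90 in PrlR+/- 1 to 4, against 6.52, 6.29 and 6.61 in PrlR+/+ 1 to 3. PrlR+/- 4 was the highest and PrlR+/- 3 the lowest of all mice. PrlR+/- 4 was also the highest for Cd3d, whose probe set is too dim to show whether the chains run in parallel. The difference of Cd3e was 0.06 ± 0.16 (SE) with all mice and -0.06 without PrlR+/- 4. Cd247, the zeta chain, had values of 5.94, 6.07, 6.08 and 6.21 in PrlR+/- 1 to 4, against 5.90, 6.08 and 6.08 in PrlR+/+ 1 to 3. Cd8a, the coreceptor of cytotoxic T cells, had 6.29, 6.26, 6.08 and 6.48 in PrlR+/- 1 to 4, against 6.07, 6.35 and 6.26 in PrlR+/+ 1 to 3. Both overlapped between the genotypes throughout, with differences of 0.06 ± 0.08 and 0.05 ± 0.11 (SE). Without PrlR+/- 4, the highest mouse for both, these were 0.01 and -0.02. Cd4, the coreceptor of helper T cells, was dim, at 5.75, 5.90, 5.74 and 5.77 in PrlR+/- 1 to 4, against 5.74, 5.63 and 5.70 in PrlR+/+ 1 to 3. Its groups met at 5.74, and its difference was 0.10 ± 0.06 (SE). Cd3g and Cd8b1, the remaining chains, had differences of 0.16 and 0.06, and no array put either above its own dim limit.

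Lat, the adaptor below the receptor, had log2 values of 6.29, 6.29, 6.29 and 6.58 in PrlR+/- 1 to 4, against 6.15, 6.29 and 6.20 in PrlR+/+ 1 to 3. PrlR+/- 4 alone lay apart, and the difference of 0.15 ± 0.09 (SE) was 0.08 without it. The kinase gene Zap70 was dim, with a difference of -0.01. Among surface molecules, Cd5, a brake on receptor signalling, was at 6.25, 6.13, 6.12 and 6.40 in PrlR+/- 1 to 4, against 6.25, 6.29 and 6.21 in PrlR+/+ 1 to 3. Its groups overlapped, with a difference of -0.03 ± 0.08 (SE). Cd2, Cd6 and Cd7 were dim, with differences between -0.04 and 0.12.

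Costimulation, checkpoint and regulatory T cell genes had higher means in 6 of 6 cases, or 5 of 6 without PrlR+/- 4, and none had an unadjusted p under 0.05. Foxp3, the factor that defines regulatory T cells, was near the dim limit, at 6.04, 6.07, 5.91 and 6.37 in PrlR+/- 1 to 4, against 5.90, 5.94 and 6.04 in PrlR+/+ 1 to 3. Its difference of 0.14 ± 0.11 (SE) was 0.05 without PrlR+/- 4. Il2ra, the alpha chain of the interleukin 2 receptor carried by those cells, was clearly above the dim range, at 6.81, 6.84, 7.22 and 6.84 in PrlR+/- 1 to 4, against 6.90, 6.75 and 6.85 in PrlR+/+ 1 to 3. Only PrlR+/- 3 lay above all others, and this was not the mouse with the highest Foxp3. The difference of Il2ra was 0.09 ± 0.11 (SE), and it was 0.00 without PrlR+/- 3. Cd27, Cd28, Icos and Ctla4 were dim, with differences between 0.02 and 0.15. Icos read 5.09 on 6 of the 7 arrays.

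Of the naive and memory T cell genes, Ccr7, the chemokine receptor that guides T cells to lymph nodes, was above the dim range. Its log2 values were 6.95, 6.95, 6.86 and 7.38 in PrlR+/- 1 to 4, against 6.88, 6.88 and 7.04 in PrlR+/+ 1 to 3. PrlR+/- 4 was again the high mouse, and the difference of 0.10 ± 0.13 (SE) was -0.01 without it. Il7r, the interleukin 7 receptor, and Lef1, a Wnt pathway factor, were dim, with differences of -0.02 and 0.04.

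Cytotoxic and NK cell genes were mostly inside the dim range, with 9 of 11 higher in mean, or 6 of 11 without PrlR+/- 4, and a median difference of 0.048. Ccl5, a chemokine of activated T and NK cells that other cells make too, was above the 99th percentile of olfactory receptor genes, at 6.91, 7.15, 7.24 and 7.65 in PrlR+/- 1 to 4, against 7.35, 6.98 and 7.33 in PrlR+/+ 1 to 3. The PrlR+/- mice held both the lowest and the highest value, and the difference of 0.02 ± 0.18 (SE) was -0.12 without PrlR+/- 4. Prf1, which encodes perforin, was at 6.18, 6.18, 6.17 and 6.55 in PrlR+/- 1 to 4, against 6.18, 6.18 and 6.09 in PrlR+/+ 1 to 3. The other arrays lay between 6.09 and 6.18, so PrlR+/- 4 alone was high. The difference was 0.12 ± 0.11 (SE), or 0.03 without it. Its partner Gzma, a granzyme, was dim, at 4.47, 4.35, 4.42 and 4.58 in PrlR+/- 1 to 4, against 4.38, 4.42 and 4.42 in PrlR+/+ 1 to 3. Ncr1, a receptor that marks NK cells, was dim as well, at 4.76, 4.36, 4.36 and 4.37 in PrlR+/- 1 to 4, against 4.47, 4.14 and 4.16 in PrlR+/+ 1 to 3. Its difference of 0.21 ± 0.13 (SE) leaned on PrlR+/- 1, and the groups overlapped. The other granzymes Gzmb and Gzmk, the NK receptors Klrd1 and Klrk1, the granule protein gene Nkg7, the chemokine gene Xcl1 and Ifng had differences between -0.03 and 0.11.

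B cell genes gave no separation of the genotypes either, with 9 of 10 higher in mean and differences between -0.01 and 0.12. Without PrlR+/- 4, 3 were higher, 5 lower and 2 equal. Cd79b, a part of the signalling pair of the B cell receptor, had log2 values of 6.43, 6.53, 6.47 and 6.93 in PrlR+/- 1 to 4, against 6.51, 6.46 and 6.51 in PrlR+/+ 1 to 3. Pou2af1, a B cell coactivator, was at 6.25, 6.15, 5.92 and 6.72 in PrlR+/- 1 to 4, against 6.20, 6.15 and 6.07 in PrlR+/+ 1 to 3. In both genes PrlR+/- 4 was the only mouse far from the others, and their differences of 0.10 ± 0.12 and 0.12 ± 0.17 (SE) were -0.02 and -0.03 without it. Fcmr was at 6.03, 6.00, 5.93 and 6.12 in PrlR+/- 1 to 4, against 5.91, 5.99 and 6.00 in PrlR+/+ 1 to 3, at the limit of the dim range. Ms4a1, which encodes the B cell antigen CD20, was at 4.03, 3.94, 4.03 and 4.35 in PrlR+/- 1 to 4, against 4.03 in all PrlR+/+ mice. Every value but that of PrlR+/- 4 lay below the median of olfactory receptor genes. Cd22, Pax5, Blk, Btk and Cxcr5 were also dim, with differences of at most 0.06 in size.

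Among the probe sets that stood for the members, those of Cd79a and Jchain varied most between mice, and they did so within both genotypes. A dimmer probe set of Ighm, which did not stand for it, had a wider range of 2.47. Jchain encodes the chain that joins antibody units into IgA dimers and IgM pentamers. Its log2 values were 4.69, 4.35, 5.56 and 4.70 in PrlR+/- 1 to 4, against 4.24, 4.89 and 4.45 in PrlR+/+ 1 to 3, a range of 1.32. Cd79a, which pairs with Cd79b in the B cell receptor, was at 5.58, 5.58, 6.67 and 6.47 in PrlR+/- 1 to 4, against 5.42, 6.47 and 5.99 in PrlR+/+ 1 to 3, a range of 1.25. Both genes were highest in PrlR+/- 3 and lowest in PrlR+/+ 1, and in both PrlR+/+ 2 was the highest of its genotype. The next widest range was the 0.83 of Ctla2b. The genotype differences, 0.12 ± 0.35 for Cd79a and 0.30 ± 0.29 for Jchain (SE), were within this spread between mice (limma, unadjusted p = 0.755 and 0.334).

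Igha, the constant region of the IgA heavy chain, is no member and was looked up after the values of Jchain were seen. One of its probe sets was at 5.88, 5.73, 6.82 and 5.81 in PrlR+/- 1 to 4, against 5.34, 6.32 and 5.61 in PrlR+/+ 1 to 3. The order of the highest mouse, the second and the lowest was that of Jchain. Its second probe set was at 5.53, 5.47, 5.85 and 5.53 in PrlR+/- 1 to 4, against 5.45, 5.80 and 5.53 in PrlR+/+ 1 to 3, with the same pair of mice on top. Cd79b, which pairs with Cd79a, did not follow this order.

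**Figure D4:**
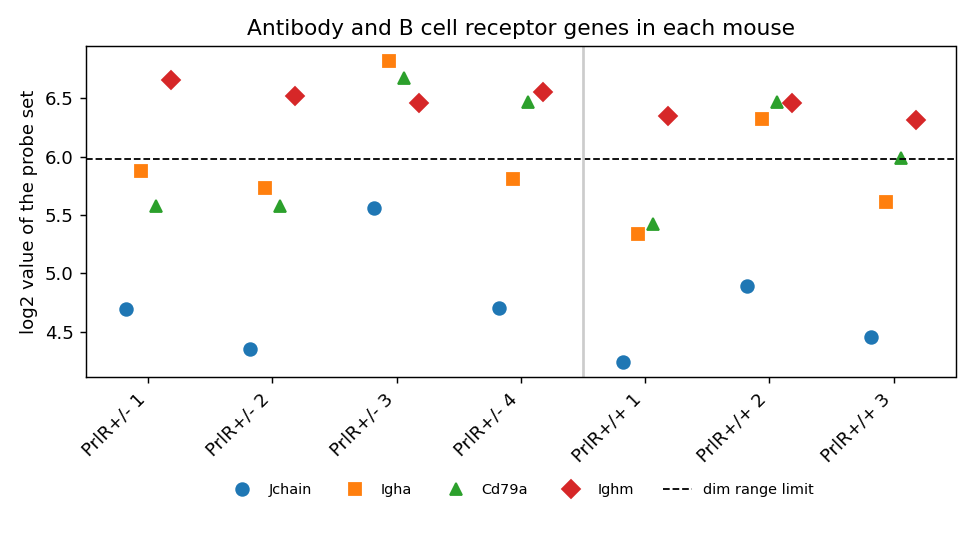
Log2 values of Jchain, Igha, Cd79a and Ighm (highest-mean probe set) in each mouse, PrlR+/- mice left of the grey line and PrlR+/+ mice right of it, with the dim range limit at 5.98 as a dashed line. Jchain, Igha and Cd79a are highest in PrlR+/- 3 and lowest in PrlR+/+ 1, while Ighm stays between 6.31 and 6.66 in every mouse.

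Ighm, the constant region of the IgM heavy chain, did not share that order in its highest-mean probe set. It was at 6.66, 6.52, 6.46 and 6.55 in PrlR+/- 1 to 4, against 6.35, 6.46 and 6.31 in PrlR+/+ 1 to 3. The groups met at 6.46, and the difference was 0.17 ± 0.07 (SE; limma, unadjusted p = 0.041, adjusted p = 0.99). The value did not change without PrlR+/- 4. The gene had 3 probe sets, and they disagreed: the other two had differences of 0.04, with values between 5.70 and 5.86, and of 0.17, with values from 3.23 to 5.70 and the highest in PrlR+/- 3. Mzb1, a chaperone of antibody secretion in B and plasma cells, was at 6.44, 6.44, 6.37 and 6.44 in PrlR+/- 1 to 4, against 6.56, 6.31 and 6.44 in PrlR+/+ 1 to 3. It overlapped, with a difference of -0.01 ± 0.07 (SE).

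Across the members, 1 array recurred as the high one. PrlR+/- 4 held the single highest value for 33 of the 49 members, or 67.3%, and the lowest for 0. That array also held the highest value for 37.2% of the olfactory receptor genes and 29.3% of all genes. Relative to the mean of each gene over the 7 arrays, the members lay 0.189 higher on average on that array, the olfactory receptor genes 0.081 higher and all genes 0.016 higher. On the 6 other arrays the members lay between -0.069 and -0.009. The lower quartile of all genes was 5.82 on the array of PrlR+/- 4 and between 5.62 and 5.73 on the others. What part of the member shift on this array is a shift of dim probe sets was not tested. The 17 members above the dim range averaged 6.745 there, against 6.453 to 6.484 in the other PrlR+/- mice and 6.411 to 6.458 in the PrlR+/+ mice.

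**Figure D5:**
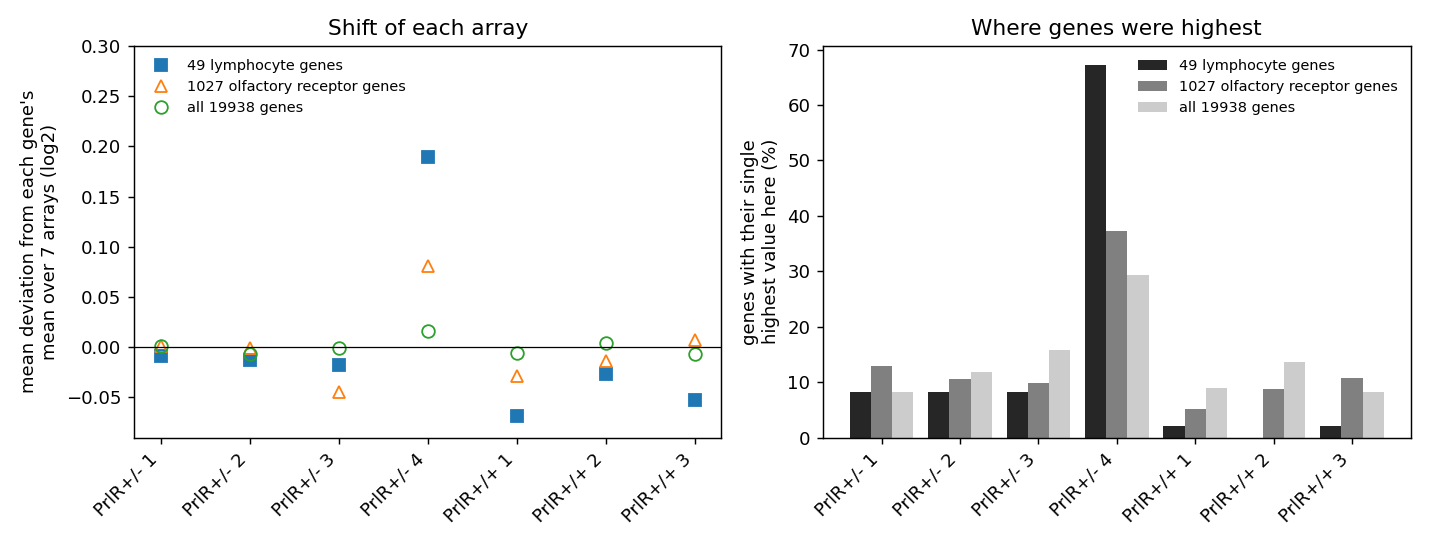
Left, the mean deviation (log2) of the 49 lymphocyte genes, 1027 olfactory receptor genes and all 19938 genes on each array from their own means over the 7 arrays; right, the percentage of each set with its single highest value on that array. PrlR+/- 4 stands out in both, at 0.189 and 67.3% for lymphocyte genes and at 0.081 and 37.2% for olfactory receptor genes.

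Further lymphocyte genes outside the members were also looked at. Of 38 such genes 33 were measured, 26 of them with a higher and 7 with a lower mean in PrlR+/- islets, and 0 had an adjusted or unadjusted p under 0.05 by limma. Their median difference was 0.078. Without PrlR+/- 4, whose list mean of 5.91 lay above the 5.78 to 5.81 of the other PrlR+/- mice, 23 were higher, 9 lower and 1 equal, with a median difference of 0.043. Ptprc, which encodes the leukocyte antigen CD45, was at 6.30, 6.59, 6.56 and 6.41 in PrlR+/- 1 to 4, against 6.59, 6.48 and 6.54 in PrlR+/+ 1 to 3, and overlapped throughout. PrlR+/- 4 was not the highest mouse for Ptprc, although it was the highest for the list mean. What this says of cell numbers was not tested. Of 12 myeloid markers 9 had a higher mean, or 10 without PrlR+/- 4, and 8 of the 12 lay above the dim range. Their list means were 6.73 to 6.79 in PrlR+/- mice, against 6.74, 6.53 and 6.73 in PrlR+/+ 1 to 3. Lyz2, the lysozyme gene of macrophages and neutrophils, was the 1 whose groups did not overlap, at 8.80, 8.72, 8.49 and 8.79 in PrlR+/- 1 to 4, against 8.19, 8.05 and 7.93 in PrlR+/+ 1 to 3, a difference of 0.64 ± 0.10 (SE; limma, adjusted p = 0.99). Of 10 endothelial markers 7 had a higher mean, with or without PrlR+/- 4. Their list means were 9.03 to 9.33 in PrlR+/- and 9.02 to 9.12 in PrlR+/+ mice. Emcn, an endothelial sialoglycoprotein, did not overlap, at 11.34, 11.44, 11.59 and 11.60 in PrlR+/- 1 to 4, against 11.28, 11.13 and 11.30 in PrlR+/+ 1 to 3, with an adjusted p of 0.99 by limma. Without PrlR+/- 4 the difference was 0.61 for Lyz2 and 0.22 for Emcn, which was at 0.26 with all mice. Over all genes 55.7% had a higher mean, or 49.5% without PrlR+/- 4, and 2.24% did not overlap with all mice. The part of myeloid and endothelial cells in the lymphocyte values was not tested.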

How the data were processed

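The authors deposited log2 values with 2 decimals for 35556 probe sets, with a column for each array; a log2 scale follows from their span of 1.73 to 13.97. Affymetrix Expression Console 1.2.0.20 is named per the submitters' processing notes. How background was corrected and arrays were normalized or summarized is not given in the sources used here. Depth does not apply to arrays, and no scan dates were used, so batch was not tested. Of the probe sets, 21789 had 1 gene symbol in the platform annotation, 1621 had several and 12146 none; the first kind gave 19938 genes, and the highest-mean probe set stood for each of the 999 genes with more than 1. No further normalization or filter was applied.

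Differences are PrlR+/- minus PrlR+/+. They were fitted in R 4.3.3 by limma 3.58.1, with moderated 2-sided tests, Benjamini-Hochberg adjustment over all genes and a threshold of 0.05. Means equal in the deposited decimals count as equal. The fit was tested on simulated data. The dim range was the 95th percentile of olfactory receptor gene means. Counts and medians of lists are descriptions with no test. Values in every mouse are given for members above the dim range, with unadjusted p under 0.05 or non-overlapping groups, and for 12 defining markers; Ctla2a was added as the relative of Ctla2b after its values were seen. The members and lists were chosen with earlier results of these data known. Promoter windows came from RefSeq (GRCm38.p6) by symbol and were aligned with Biopython 1.88. Nothing says whether replicate numbers mark shared batches: the deviations of same-numbered mice correlated at 0.09, -0.386 and -0.029, so the numbers were not taken as pairs. Alternatives were other variance models, array weights, scalings, dim filters, the mean of all probe sets, a replicate block and leaving out each mouse.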

Additional observations from a re-analysis of the deposited data

Results flagged for a closer look

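Of the members given per mouse, 24 (all but Ctla2a) were screened, with 5 summaries of each array, for 1 PrlR+/- mouse far from the other 3; chance marks about 1 in 20 such groups of 4. PrlR+/- 4 was far above the others for Lat, at 6.58 against 6.29 in each, for Prf1, at 6.55 against 6.17 to 6.18, and for Cd3d, at 5.13 against 4.96 in each. It was also far above them in the mean over the 49 members, at 5.773 against 5.566 to 5.575, in the mean over the 17 members above the dim range, at 6.745 against 6.453 to 6.484, and in the median of the olfactory receptor genes, at 4.30 against 4.22 to 4.23. PrlR+/- 3 was far above the others for Il2ra, at 7.22 against 6.81 to 6.84, and below them for Mzb1, at 6.37 against 6.44 in each. PrlR+/- 1 was far above the others for Ncr1, at 4.76 against 4.36 to 4.37. Equal values on the other 3 arrays make such a gap easy to reach. Of the 49 members, 11 (22.4%) had the same value on 4 or more arrays, beside 31.2% of olfactory receptor genes and 15.1% of all genes.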

How the results depend on the processing

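No setting called a gene by limma: 0 of the genes had an adjusted p under 0.05 in each of the 17 alternative fits, nor under 0.10 with all mice, while 247 to 1132 genes had an unadjusted p under 0.05 (438 in the fit as reported). Of the 49 members, 26 lay above the 90th percentile of olfactory receptor genes, 4 above the 99th and 1 above the median of all genes, in place of 17 above the 95th; leaving out a mouse gave 16 to 18. Either filter on dim genes kept 4 members, Thy1, Il2ra, Ccr7 and Ccl5. Of these, 4 had a higher mean, 1 had an unadjusted p under 0.05 and 1 had groups that did not overlap. Over all genes kept by the percentile filter and by the probe set median filter, 48.5% and 48.2% had a higher mean. An unadjusted p under 0.05 was found for 2.21% under either, and 2.74% and 2.76% did not overlap. Members with an unadjusted p under 0.05 numbered 7 with array weights, 2 with quantile normalization and 2 with centring on the gene median. The shares of all genes were 5.68%, 2.34% and 2.21%, in place of 4 members beside 2.2%. Without 1 mouse such members numbered 2 to 4, with 2 without PrlR+/- 1, PrlR+/- 4, PrlR+/+ 1 or PrlR+/+ 3. In those fits, in that order, 3.12%, 1.87%, 1.77% and 1.24% of all genes had such a p. The share was 3.98%, 2.37% and 2.87% without PrlR+/- 2, PrlR+/- 3 and PrlR+/+ 2, with 4 members in each. Ctla2b and Thy1 kept an unadjusted p under 0.05 in every fit that included them, with differences of 0.47 to 0.62 and 0.24 to 0.39. Members with groups that did not overlap numbered 3 to 6 without 1 mouse. There were 5 without PrlR+/- 3, 6 without PrlR+/+ 1 and 6 without PrlR+/+ 2, beside 4.95%, 6.71% and 10.3% of all genes. Leaving out any other mouse gave 3 or 4, beside 3.54% to 5.75% of all genes. With quantile normalization 2 did not overlap, beside 3.57% of all genes, and Cd3d overlapped. Higher means were counted for 27 members without PrlR+/- 4 (beside 49.5% of all genes) to 43 without PrlR+/- 3 (beside 56.1%). Without 1 mouse the median difference of the members was 0.013 to 0.085. Over the 17 members above the dim range, a setting added after the data were seen, it was 0.097. With array weights 34 members were higher, beside 54.1% of all genes.

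The direction of several small differences turned; the cause was not tested. With array weights Ccl5 was at -0.23, Cd247 at -0.01, Cd3e at -0.05, Cd79a at -0.03 and Cd79b at -0.01. Without 1 mouse the differences ranged from -0.12 to 0.13 for Ccl5, -0.01 to 0.16 for Ccr7, -0.06 to 0.16 for Cd3e, -0.08 to 0.01 for Cd5, -0.16 to 0.37 for Cd79a, -0.02 to 0.15 for Cd79b, -0.03 to 0.12 for Cd8a, -0.03 to 0.11 for Ms4a1, -0.08 to 0.05 for Mzb1 and -0.03 to 0.23 for Pou2af1. With the replicate block, in which PrlR+/- 4 has no partner and adds nothing to the difference, 27 members were higher, the median difference was 0.013 and 341 genes had an unadjusted p under 0.05; Ccl5 was at -0.12, Ccr7 at -0.01, Cd3e at -0.06, Cd79a at -0.02, Cd79b at -0.02, Cd8a at -0.02, Ms4a1 at -0.03 and Pou2af1 at -0.03. Same-numbered mice did not deviate together, and PrlR+/+ 2 correlated least with PrlR+/- 2.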

Other observations

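Chemokines and cytokines that attract or sustain lymphocytes were measured for 8 genes, of which 6 lay above the dim range. A higher mean in PrlR+/- islets was found for 6, or 4 without PrlR+/- 4, beside 55.7% and 49.5% of all genes. None had an adjusted p under 0.05 by limma. Over all genes, 2.24% had groups that did not overlap. Ccl19, a ligand of Ccr7, was the 1 of these 8 whose groups did not overlap. It was at 7.17, 7.37, 7.26 and 7.60 in PrlR+/- 1 to 4, against 6.93, 7.02 and 7.12 in PrlR+/+ 1 to 3. Its difference was 0.33 ± 0.11 (SE), with an unadjusted p of 0.0193 and an adjusted p of 0.99 by limma. Without PrlR+/- 4 the difference was 0.24. Ccl19 had 5 probe sets, of which only the highest-mean one is given, so whether they agree is not shown. Related copies in the mouse genome make the value uncertain as to the gene. Cxcl10, an interferon-induced chemokine for T cells, was at 7.93, 7.17, 8.37 and 7.81 in PrlR+/- 1 to 4, against 8.49, 6.72 and 8.34 in PrlR+/+ 1 to 3, so its spread within PrlR+/+ was wider than the difference of -0.03 ± 0.46 (SE). Cxcl13, which attracts B cells through Cxcr5, was at 7.16, 7.54, 7.46 and 8.05 in PrlR+/- 1 to 4, against 7.51, 6.90 and 7.51 in PrlR+/+ 1 to 3, with a difference of 0.25 ± 0.23 (SE) that was 0.08 without PrlR+/- 4.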
